A study of Mus musculus with 6 samples.

Results

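The histamine genes described here are Hdc, Slc18a2, Hnmt, Aoc1, Slc22a3 and the receptor genes Hrh1, Hrh2, Hrh3 and Hrh4. They were chosen by symbol: a probe set was taken where the platform annotation gave exactly 1 symbol equal to a member, and the probe set with the highest mean over the 6 arrays stood for the gene. This left 8 of the 9 members among 19938 genes, each with a single probe set, and Slc22a3, an organic cation carrier, was not analysed here. The set was drawn up with the difference of Hdc in these arrays already known, so its values are a description and no independent evidence for its call.

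The mice were 9 weeks old and of a mixed C57BL/6 and 129X1 strain, and RNA from their dissected larger proximal airways was measured on Affymetrix mouse gene arrays, 1 for each sample. The 3 mutant samples carried Scgb1a1-cre with Foxp1flox/flox and Foxp4flox/flox, and the 3 control samples carried Scgb1a1-Cre without floxed alleles named in the labels. The Cre driver, which both groups share, is active mainly in club cells of the airway epithelium. Which cells of the airway wall lost or kept Foxp1 and Foxp4, a pair of forkhead transcription factor genes, was not measured here. Floxed mice without Cre are not among these arrays. The study concerned airway constriction, in which histamine is a classical mediator.

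Histamine is made from the amino acid histidine in 1 step by histidine decarboxylase, the product of Hdc. Mast cells, basophils and the enterochromaffin-like cells of the stomach load it into vesicles through the monoamine carrier encoded by Slc18a2 and release it on stimulation. The methyltransferase encoded by Hnmt inactivates histamine inside cells, and the diamine oxidase encoded by Aoc1 degrades it outside them. Of the 4 receptors, Hrh1 couples to calcium release and can contract airway smooth muscle in some species. Hrh2 raises cyclic AMP, Hrh3 acts mainly on neurons and Hrh4 mainly on blood cells. The arrays do not measure contraction.

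The promoter windows of the enzyme that makes histamine and of the enzyme that methylates it are shown because these are the members with the largest differences between the groups. They come from RefSeq on GRCm38.p6, run from 250 bases before to 50 bases after the listed start site, and lie on the minus strand at chr2:126618629-126618928 for Hdc and chr2:24049330-24049629 for Hnmt. Capitals mark GGGCGG, the GC box, in Hdc and TGTTT, the short forkhead core, in Hnmt, where it stands on the other strand and so reads as its reverse complement.
Hdc: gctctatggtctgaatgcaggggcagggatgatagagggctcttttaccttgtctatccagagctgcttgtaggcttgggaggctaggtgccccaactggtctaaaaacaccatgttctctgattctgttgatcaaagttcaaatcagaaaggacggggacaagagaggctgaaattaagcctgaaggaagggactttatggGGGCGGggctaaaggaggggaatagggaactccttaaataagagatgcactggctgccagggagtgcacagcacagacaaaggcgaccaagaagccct
Hnmt: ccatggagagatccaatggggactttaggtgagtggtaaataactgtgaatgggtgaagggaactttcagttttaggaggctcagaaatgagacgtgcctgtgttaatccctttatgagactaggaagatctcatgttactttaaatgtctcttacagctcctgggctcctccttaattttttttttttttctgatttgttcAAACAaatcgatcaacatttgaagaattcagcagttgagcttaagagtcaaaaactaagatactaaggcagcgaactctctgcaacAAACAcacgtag
Counted from the start base as 0, the GC box of Hdc spans bases -48 to -43. The short forkhead core of Hdc, not capitalised, lies on the other strand at -145 to -141, and that of Hnmt at -48 to -44 and 38 to 42. The longer forkhead motif TGTTTAC and the E-box CACGTG were in none of the 12 windows searched, on either strand. These windows belong to 7 of the measured members, and Hrh4 was not searched. AGATAA, the GATA motif, was in windows of 3 of these 7 genes (Aoc1, Hrh1 and Slc18a2), TGTTT in windows of 3 and GGGCGG in windows of 5. Among all 32851 windows of the same length, TGTTTAC was in 3.65%, TGTTT, which TGTTTAC contains, in 50.5%, GGGCGG in 35.7%, AGATAA in 11.2% and CACGTG in 7.15%. These shares are per window, while the counts of members are per gene. Some members have several windows, so the shares and the counts cannot be compared directly. Other spellings of the longer forkhead motif were not searched. A match is a string of letters and not a binding site.

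Hdc was the histamine gene that stood apart between the groups. On the log2 scale it read 10.88, 10.12 and 10.90 in mutants 1, 2 and 3, against 7.71, 7.61 and 7.97 in controls 1, 2 and 3. Every mutant array lay above every control array, and mutant 2 was the lowest of the mutants. The mean was 10.63 ± 0.44 in mutants and 7.76 ± 0.19 in controls (SD, n = 3 each), a difference of 2.87 (SE 0.23), or 7.30-fold with a 95% interval of 4.98 to 10.7. The limma test over all genes gave a Benjamini-Hochberg adjusted p of 0.0129. An exact two-sided permutation test gave p = 0.1, the smallest value that 3 against 3 arrays allow.

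Of the 8 measured members, 1 was called at an adjusted p under 0.05, higher in mutants, and none was called lower. Over all genes the share called was 0.266%, of which 0.236% were higher and 0.0301% lower. The arrays of the groups did not overlap for the same 1 member, and for 15.0% of all genes. The median log2 difference was 0.05 over the 8 members, 0.03 over the 7 members other than Hdc and 0.02 over all genes.

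**Figure D1:**
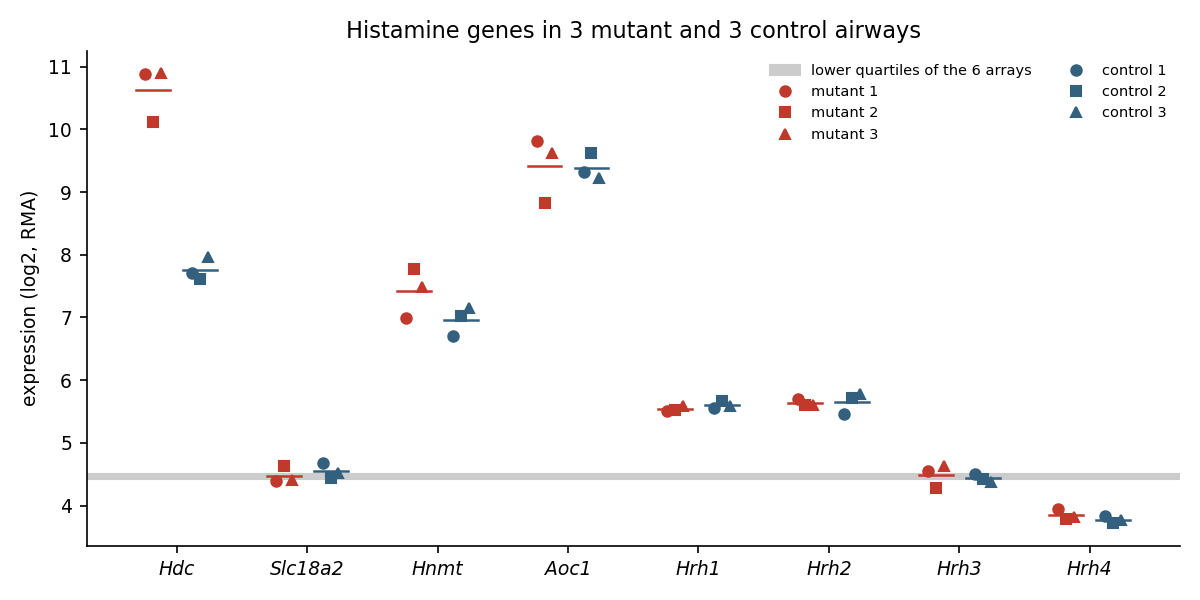
Expression (log2, RMA) of the 8 measured histamine genes, mutant arrays in red at the left of each pair and control arrays in blue at the right, with a symbol per array and a line at each group mean; the grey band spans the lower quartiles of the 6 arrays (4.42 to 4.50). The lowest mutant value of Hdc is 10.12 and the highest control value 7.97, the groups overlap for the other 7 genes, and Hrh4 lies below the band on every array.

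The vesicle carrier gene Slc18a2 was not called. It read 4.39, 4.63 and 4.41 in mutants, against 4.68, 4.44 and 4.53 in controls. The groups overlapped, and all 6 values lay close to the lower quartile of their arrays, so a change in a dim signal could have gone undetected. The difference was -0.07 with a 95% interval of -0.33 to 0.19 (limma adjusted p = 0.894).

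Of the degrading enzymes, Hnmt read 6.99, 7.77 and 7.49 in mutants, against 6.70, 7.03 and 7.15 in controls. Mutants 2 and 3 were above all controls, while mutant 1 lay among them. The log2 difference was 0.46 (95% interval -0.07 to 0.98), which did not pass (limma adjusted p = 0.561). It was 0.28 without mutant 2 and 0.15 without control 1 and mutant 2. Aoc1 read 9.81, 8.83 and 9.62 in mutants, against 9.32, 9.63 and 9.22 in controls. Mutant 2 was the lowest of all 6 arrays for Aoc1 and the highest for Hnmt. The difference of Aoc1 was 0.03, with the widest interval of the 8 members, -0.60 to 0.67 (limma adjusted p = 0.981). On the linear scale the intervals correspond to 0.95- to 1.98-fold for Hnmt and 0.66- to 1.59-fold for Aoc1.

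None of the 4 receptor genes was called, and their log2 differences spanned -0.06 to 0.08. Hrh1, the receptor of airway smooth muscle and endothelium, read 5.51, 5.53 and 5.59 in mutants, against 5.55, 5.67 and 5.58 in controls. The groups overlapped within a narrow spread, and the difference was -0.06 (95% interval -0.24 to 0.13; limma adjusted p = 0.883). Hrh2 read 5.70, 5.61 and 5.61 in mutants, against 5.45, 5.71 and 5.78 in controls. The mutants fell inside the range of the controls, with a difference of -0.01 (interval -0.27 to 0.25; limma adjusted p = 0.987).

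Hrh3 read 4.55, 4.28 and 4.64 in mutants, against 4.50, 4.43 and 4.37 in controls. The lowest and the highest of these values were both mutants, and the difference was 0.06 (interval -0.21 to 0.33; limma adjusted p = 0.928). Hrh4 read 3.94, 3.79 and 3.82 in mutants, against 3.83, 3.72 and 3.77 in controls. It lay below the lower quartile of every array, and its difference was 0.08 (interval -0.12 to 0.28; limma adjusted p = 0.832). Hrh1 and Hrh2 were brighter, yet lay below the median of every array (5.89 to 5.95). Without detection calls, these values do not show whether any of the 4 receptor genes or Slc18a2 was expressed.

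**Figure D2:**
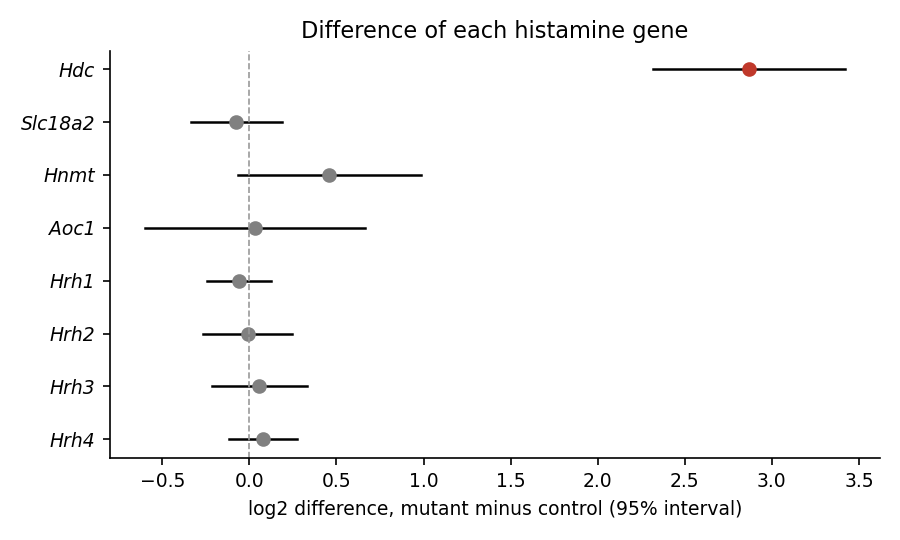
Log2 difference, mutant minus control, of each measured histamine gene (points) with limma's 95% interval (bars), 3 arrays per group; the red point passed the adjusted test and grey points did not. Hdc stands at 2.87, while the intervals of the other 7 genes include 0.

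The array with the lowest Hdc value among mutants also differed in other genes. In mutant 2 the mean of the 12 listed airway epithelial genes was 9.78, against 10.35 and 10.27 in mutants 1 and 3, and 10.08, 9.97 and 9.71 in controls 1, 2 and 3. Hdc minus this epithelial mean was 0.53, 0.33 and 0.62 in mutants, against -2.37, -2.36 and -1.74 in controls. The difference between the group means of this value was 2.65. The epithelial means varied far less than Hdc, so the order of the groups here follows from Hdc itself. The epithelial list itself had a median difference of 0.25 and no called member of 12, beside 0.266% called over all genes. Scgb1a1, the club cell secretoglobin gene that lends the Cre its promoter, had a difference of 0.25 that did not pass (limma adjusted p = 0.476). Its signal was bright on every array, between 12.50 and 12.58 in mutants and between 12.13 and 12.41 in controls, as the label of airway tissue implies. Mutant 2 was the highest array for Scgb1a1 and also for the secretoglobin gene Scgb3a2 (12.17), so the epithelial list did not fall as one there. The other listed genes were lowest of the mutants in mutant 2, by little for Cyp2f2 (12.96, against 13.01 and 13.04 in mutants 1 and 3). Krt5 read 6.73 in mutant 2, against 8.93 and 7.63 in mutants 1 and 3, and Elf3 read 8.15, against 9.42 and 9.28. The share of club cells was not tested. In RNA from whole airway tissue, more cells of a type and more RNA per cell cannot be told apart.

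Because Hdc is best known from mast cells, their other genes were examined. None of the 19 measured mast cell genes was called, 12 lay above 0 and 7 below, and the median log2 difference was 0.03. With 0.266% of all genes called, an absence of calls in lists of this size is near the background and no result about these cells. The list mean was 5.21, 5.18 and 5.10 in mutants, against 5.30, 5.06 and 5.004 in controls, so the highest array was a control. Hdc minus this mean averaged 5.47 ± 0.46 in mutants and 2.64 ± 0.29 in controls (SD, n = 3 each). The difference was 2.83 (exact permutation p = 0.1, the smallest possible), and as the list mean varied little it follows from that of Hdc and adds no separate test.

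Cpa3, the mast cell carboxypeptidase, read 5.04, 4.72 and 4.55 in mutants, against 5.79, 4.38 and 4.45 in controls. Control 1 was the highest array for Cpa3 and also for the protease gene Mcpt4, which read 5.33, 5.42 and 5.05 in mutants, against 6.45, 5.002 and 4.72 in controls. Ms4a2 and Fcer1a, subunits of the IgE receptor, and Mrgprb2, a receptor of connective tissue mast cells, lay below the lower quartile on every array, with differences of -0.08, 0.04 and 0.05. These markers were named for their role and not by the rule for list genes. The 3 mast cell genes with the smallest p were Rab27b, which acts in granule secretion (difference 0.64), the prostaglandin D synthase gene Hpgds (0.49) and the transcription factor gene Gata1 (0.12), with limma adjusted p from 0.306 to 0.684.

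Lists for other cells that can make histamine were read in the same way, beside the 0.266% called over all genes. The basophil list had 0 called of 8 and a median difference of -0.10. Its genes with the smallest p were the protease gene Prss34 (0.31) and the cytokine receptor genes Csf2rb2 (-1.01) and Il3ra (-0.31). The neutrophil list had 0 called of 13 and a median of -0.19, with means of 6.72, 7.16 and 6.90 in mutants, against 7.07, 6.69 and 7.18 in controls. Within it Retnlg, a resistin-like protein of neutrophils, read 8.50, 9.53 and 8.69 in mutants, against 7.32, 7.63 and 7.71 in controls. Its groups did not overlap, and its difference of 1.35 did not pass (limma adjusted p = 0.183). S100a8, an abundant neutrophil protein gene named for its role, had a difference of -0.30 (limma adjusted p = 0.870), with 9.27, 10.62 and 9.83 in mutants, against 10.41, 9.71 and 10.48 in controls, and its groups overlapped. Mmp9 (-0.71, lower in mutants) and Ly6g (0.17) had the next smallest p of that list, and neither passed (limma adjusted p = 0.184 and 0.535). Their groups did not overlap either, which held for 15.0% of all genes, and Ly6g lay below the lower quartile of every array.

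The list of enterochromaffin-like and neuroendocrine genes had 0 called of 10 and a median of 0.02. Its leading genes by p were Scg2 (-0.24), the somatostatin gene Sst (0.16) and the chromogranin gene Chga (0.14). The gastrin receptor gene Cckbr, through which gastrin drives Hdc in the stomach, was named for that role and read 5.01, 4.52 and 4.53 in mutants, against 4.59, 4.49 and 4.54 in controls. The tuft cell list had 0 called of 13 and a median of 0.03, with Dclk1 at -0.88, Sh2d6 at 0.43 and Hpgds, which it shares with the mast cell list, at 0.49. Monocyte and macrophage genes had 0 called of 12 and a median of -0.12, and the complement genes C1qb (-0.79), C1qc (-0.64) and C1qa (-0.83) led by p.

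**Figure D3:**
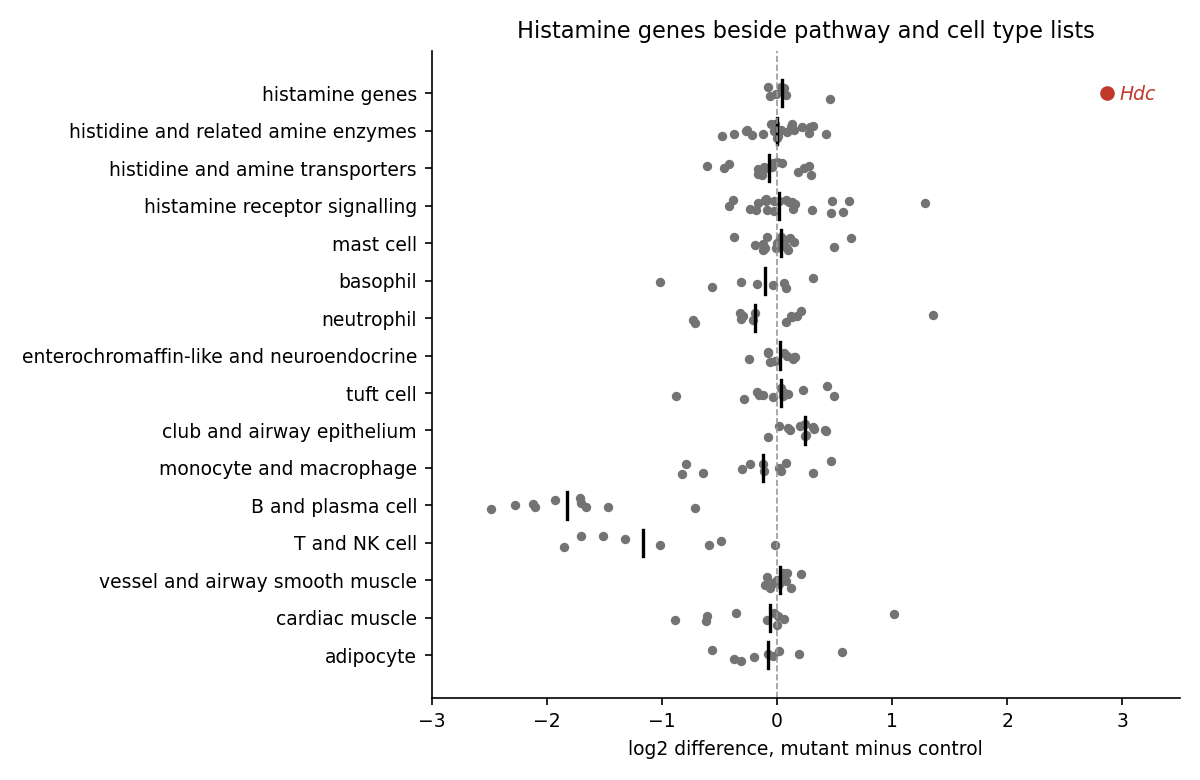
Log2 difference, mutant minus control, of the histamine genes (first line) and of each gene in the pathway and cell type lists (grey points, jittered down the page), with a black bar at each list's median. Hdc at 2.87 is the highest point shown, no gene of the other lists passed the adjusted test, and B and plasma cell genes (median -1.82) and T and NK cell genes (median -1.16) lie furthest below 0.

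The rest of the pathway was read from 3 lists. With 0.266% of all genes called, an absence of calls in these lists is near the background and no result about the pathway. Of 23 enzymes that act on histidine, methylhistamine or related amines, 0 were called and the median difference was 0.00. Aldh9a1, an aldehyde dehydrogenase of amine breakdown, read 7.22, 7.29 and 7.43 in mutants, against 7.82, 7.86 and 7.68 in controls. Every mutant lay below every control, and 15.0% of all genes had groups that did not overlap. The difference of -0.47 did not pass (limma adjusted p = 0.179). Amdhd1 of histidine breakdown (0.29) and the carnosine methyltransferase gene Carnmt1 (0.43) followed by p. Maob, the monoamine oxidase that acts on methylated histamine, was named for its role and read 7.61, 8.34 and 7.50 in mutants, against 7.87, 7.24 and 7.39 in controls, with overlapping groups. The related decarboxylase genes Ddc and Odc1, named likewise, had differences of 0.09 and -0.22 and overlapping groups.

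Of 16 measured carriers of histidine or amines, 0 were called, with a median of -0.07. The amino acid transporter chain Slc3a2 read 10.51, 10.46 and 10.55 in mutants, against 10.14, 10.18 and 10.32 in controls, and its difference of 0.30 did not pass (limma adjusted p = 0.329). Its partner Slc7a5, which carries histidine, stood at -0.46 and the cation exporter gene Slc47a1 at 0.24. Of 23 measured G proteins and effectors that histamine receptors use, 0 were called, with a median of 0.02. Adcy3, an adenylyl cyclase that makes cyclic AMP, had the smallest p and read 8.29, 7.39 and 7.95 in mutants, against 6.63, 6.61 and 6.52 in controls. Its groups did not overlap, as for 15.0% of all genes, and its difference of 1.29 (SE 0.22) did not pass (limma adjusted p = 0.115). Adcy2 (0.47) and Gna14 (0.48) followed. These effectors serve many receptors besides those for histamine.

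Genes whose pattern over the 6 arrays was most like a member were ranked by Pearson's r on log2 values among 3089 genes with an SD of at least 0.3. The points share arrays and fall into the 2 genotypes, so r mostly reflects the step between them and is a description only. The neuropeptide Y gene Npy, named in the study's title, came first for Hdc (r = 0.998, n = 6 arrays). It read 11.41, 10.14 and 11.47 in mutants, against 5.88, 5.92 and 6.08 in controls. In Npy as in Hdc, mutant 2 was the lowest mutant array and control 3 the highest control array. Mob3b (r = 0.997), Atp8b5 (0.997), Psca (0.997) and St7 (0.996) followed, and their log2 differences ranged from 0.56 for Mob3b to 5.36 for Psca. For Hnmt the closest were Armcx4 (r = 0.975) and Ttc14 (0.970). For Aoc1 they were Armh1 (0.998) and Zmynd12 (0.994), which, like Aoc1, were lowest in mutant 2. The other 5 members varied by an SD under 0.3 and were not ranked.

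**Figure D4:**
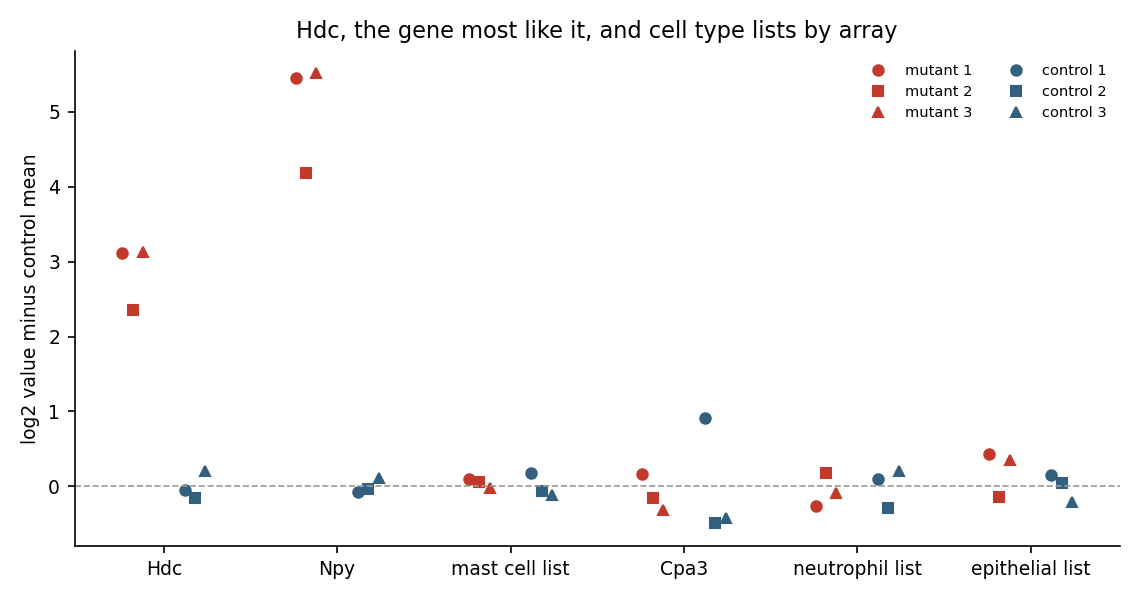
Log2 value of each array minus the control mean for Hdc, for Npy, whose pattern was most like it, for the means of the mast cell, neutrophil and epithelial lists, and for the mast cell gene Cpa3; mutants are red and at the left, controls blue and at the right, with a symbol per array. Hdc and Npy lie above all controls in the 3 mutants and lowest in mutant 2, while the lists and Cpa3 overlap between the groups, with control 1 highest for Cpa3.

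The arrays were not equally alike. Pairs correlated between 0.972 and 0.993 across genes, and for control 1 the mean correlation was 0.981 to the mutants and 0.975 to the other controls. B and plasma cell genes averaged 5.74, 7.77 and 5.97 in mutants, against 6.26, 9.44 and 9.23 in controls, so control 1 lay among the mutants there, and T and NK cell genes did the same. Cardiac muscle genes were highest in mutant 2 and control 1 (10.13 and 10.37), as were adipocyte genes (8.36 and 9.13). Smooth muscle and endothelial genes were highest in mutant 1 and control 1 (10.34 and 10.43). The median differences were -0.06 for cardiac, -0.08 for adipocyte and 0.03 for smooth muscle and endothelial genes. No gene of these 5 lists was called, beside 0.266% over all genes. The part of these lists in the values of the histamine genes was not tested. Without control 1 and mutant 2 the difference of Hdc was 3.10 (limma adjusted p = 0.000729). That setting leaves out the lowest mutant for Hdc, and it called 963 genes in all, against 53 with the 6 arrays. Foxp1 and Foxp4, the targeted genes, were lower in every mutant array than in every control array (-0.23 and -0.69), and neither passed (limma adjusted p = 0.444 and 0.339). Which of their probes lie in the floxed parts is not known here, which limits them as a check of the labels.

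The call on Hdc depended on which array was left out. Its difference ranged from 2.73 to 3.12 when each array was left out in turn. It remained called without mutant 2 (limma adjusted p = 0.00452) and without control 1 (0.0146). It was not called without mutant 1 (0.0758), mutant 3 (0.0748), control 2 (0.0755) or control 3 (0.0808). Under these settings 9 to 388 genes were called in all, against 53 with the 6 arrays.

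**Figure D5:**
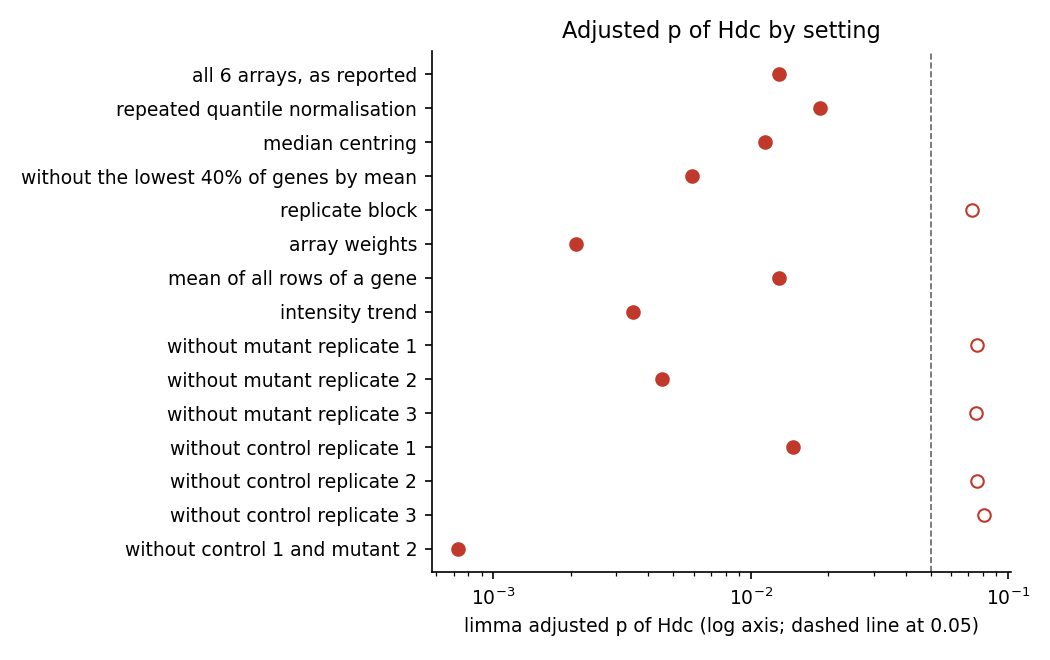
Adjusted p of Hdc from limma (log axis) under each setting, filled where it is under 0.05 and open where it is not, with a dashed line at the threshold. The open points are the replicate block (0.0724) and the settings without mutant 1, mutant 3, control 2 or control 3, and the lowest is 0.000729 without control 1 and mutant 2.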

How the data were processed

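The deposited table holds log2 values of 35556 probe sets on each array. Per the submitters' processing notes oligo, RMA and limma were used. Not given in the sources used here: versions, the genome build, and joint or separate normalisation of the arrays. The RMA background correction and probe summary shrink the differences of dim probe sets. The platform annotation gave 1 symbol for 21789 probe sets, several for 1621 and none for 12146. Array medians were 5.89 to 5.95. Precision is limited by the number of arrays.

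All 19938 genes were fitted by lmFit and eBayes of limma 3.58.1 under R 4.3.3, genotype as the only term and no filter. Tests were two-sided with Benjamini-Hochberg adjustment over all genes and a threshold of 0.05. Exact permutation tests and tables used Python 3.11.15 with scipy 1.17.1 and pandas 2.3.3. The fit was tested on simulated data with independent normal noise and equal quality on every array. The real arrays had weights from 0.48 to 2.38, so that test checks the code and not the calls. Members, lists, rules and alternatives were chosen with earlier results of these data known. Named list genes were any called and the 3 with the smallest p, and genes named for their role are marked so. Likeness named 5 genes for Hdc and 2 for each other member with an SD of at least 0.3, leaving out unnamed transcripts and olfactory or vomeronasal receptors. The labels number samples 1 to 3 in each group without naming separate mice, so p-values measure the spread between samples, which may be technical. No pair of arrays held identical values. No batch was tested, since neither scanner files nor dates of scanning were used. The alternatives were 2 normalisations, a filter on dim genes, array weights, the replicate block, averaging the rows of a gene, an intensity trend and leaving out arrays.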

Additional observations from a re-analysis of the deposited data

How the results depend on the processing

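Hdc was higher in mutants under all 14 alternatives, by 2.73 to 3.12 on the log2 scale, and was called in 9 of them, with limma adjusted p from 0.000729 to 0.0808. Every mutant lay above every control, so leaving out arrays could not reverse the sign. The filter, the block, row averaging and the intensity trend leave the difference at 2.87 by design. For these settings only the size of the difference or the adjusted p could change. Same-numbered arrays showed little sign of deviating together (correlations 0.14, -0.09 and -0.04 for numbers 1, 2 and 3). Mutant 2 was closest to control 3 (0.18) and mutant 3 to control 2 (0.15). With the replicate number as a block, Hdc kept its difference of 2.87 with limma adjusted p = 0.0724. By limma with the block, 0 members and 0 genes in all were called, and 1945 genes had an unadjusted p under 0.05. When each array was left out, the difference of Hdc ranged from 2.73 to 3.12, the members called from 0 to 1 and all genes called from 9 to 388. All genes called were 291 with array weights, 82 with an intensity trend and 963 without control 1 and mutant 2, against 53 as reported. The cause was not tested. Hdc minus the mast cell mean was not computed for the block, weights or trend, which leave the array values as they are. Relative to the epithelial mean, an alternative chosen after seeing the data, Hdc differed by 2.65.

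No other member was called under any alternative. With single arrays left out, differences near 0 changed sign: Aoc1 ranged from -0.16 (without mutant 1) to 0.33 (without mutant 2), Hrh2 from -0.11 (without control 1) to 0.055 (without control 3) and Hrh3 from -0.015 (without mutant 3) to 0.16 (without mutant 2). Hrh2 was 0.025 with median centring. Hnmt, at 0.46 as reported, ranged from 0.28 (without mutant 2) to 0.67 (without mutant 1) and was 0.15 without control 1 and mutant 2. The filter on the dimmest 40% of genes removed Slc18a2 and the 4 receptor genes. Dim signal limits those 5 genes, and 3 arrays per group limit every value.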
